A study of Mus musculus with 8 samples.

Results

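The interleukin and interleukin receptor genes were taken as every probe whose gene symbol began with Il followed by a digit. The rule found 111 of the 25697 probes on the array and 78 of its 18120 gene symbols. It also took in related names, among them secreted inhibitors, the enzyme gene Il4i1, the chemokine receptor genes Il8ra and Il8rb, and Il1rl1l, an older name of Tmed1. RNA came from glomeruli, the filtering units of the kidney, of male FVB/N mice at 3 weeks of age. One group of 4 mice was Cd151+/+ and the other group of 4 mice was Cd151-/-, homozygous in the germline for a deletion of Cd151, so that no cell type of the body carried the intact gene. Every mouse had 1 array of its own of the Illumina MouseRef-8 v1.1 BeadChip format, which reads the brightness of beads that carry 1 probe sequence each. Cd151 encodes a tetraspanin, a membrane protein that binds laminin-receptor integrins on podocytes, and the comparison asked which glomerular transcripts differ early in the glomerular disease of these mice.

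Interleukins are secreted signalling proteins through which leukocytes and tissue cells set the course of inflammation. Members of the IL-1 family act through receptors that recruit MyD88 and lead to NF-kappaB, whereas most other interleukins act through receptor chains that are bound by JAK kinases and activate STAT transcription factors. In the glomerulus, podocytes, endothelial cells and mesangial cells carry receptors for several of them, and infiltrating leukocytes are a further source of the ligands.

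Receptor genes were detected more often than ligand genes in these glomeruli. A probe was called detected on an array when a share of at most 0.05 of the negative controls on that array reached its brightness, the quantity its detection p-value holds. Of the 40 receptor genes, 26 were detected on at least 1 array and 12 on all 8 arrays. Of the 31 ligand genes, 9 were detected on at least 1 array and 4 on all 8, namely Il1b, Il13, Il15 and Il17d. The 5 inhibitor genes gave 4 detected on at least 1 array, of which Il18bp was detected on all 8. In all, 41 of the 78 genes, with 62 of the 111 probes, were detected on at least 1 array and were compared between genotypes. Of the 62 probes 18 were detected on 1 array only, as were 1675 of 14967 over the whole array. At a cut of 0.05 per array a probe without signal can pass on 1 of 8 arrays. Detection on 1 array therefore does not show that a gene was expressed. The share of probes detected on at least 1 array was 55.9% among these genes against 58.2% over the whole array, but the share detected on all 8 arrays was 21.6% against 36.9%. The 37 genes that no array detected included the ligand genes Il4, Il5, Il6, Il10, Il12b, Il1a and Il27 and the receptor genes Il4ra, Il18r1, Il18rap, Il1rl1 and Il23r. On this array an undetected probe gives no level, so these genes were not measured rather than shown to be silent. Il33 and Il34 were not analysed here.

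**Figure D1:**
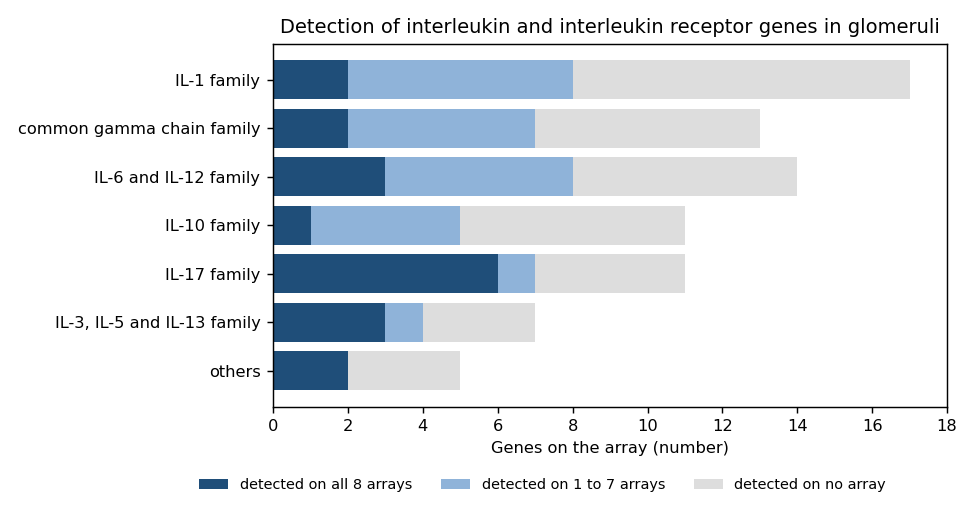
Number of genes (x axis) in each interleukin family (y axis) that was detected on all 8 arrays, on 1 to 7 arrays or on no array. In the IL-17 family 6 of 11 genes were detected on all 8 arrays, against 3 of 7 in the IL-3, IL-5 and IL-13 family, 2 of 17 in the IL-1 family and 1 of 11 in the IL-10 family.

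No interleukin or receptor probe differed between Cd151-/- and Cd151+/+ glomeruli after adjustment over all 14967 probes tested. The lowest Benjamini-Hochberg adjusted p among the 62 probes was 0.918 by limma, and 0 of them passed 0.05, where 0.0334% of all probes did. A second test, the Significance Analysis of Microarrays, called 54 probes, of which 0 belonged to these genes. At an unadjusted limma p of 0.05, Il18 and Il1rap were higher and Il11 and Il6ra were lower in Cd151-/- glomeruli. That made 2 of 62 probes higher, where 1.69% of all probes were, and 2 of 62 lower, where 2.61% were. Counts of 2 in 62 are too small to be set apart from these shares. The median log2 fold change, Cd151-/- minus Cd151+/+, over the 41 genes was -0.02, with 18 above and 23 below 0, beside a median of -0.0018 over all 11240 genes tested. These counts include 10 genes that lay at the background in all mice of 1 genotype. Over the 31 genes detected in both genotypes 12 lay above and 19 below 0, with a median of -0.10, and the 19 genes detected on all 8 arrays also gave -0.10. Since glomeruli were measured as a bulk tissue, fewer cells of a type and less RNA per cell cannot be told apart in any of these values.

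**Figure D2:**
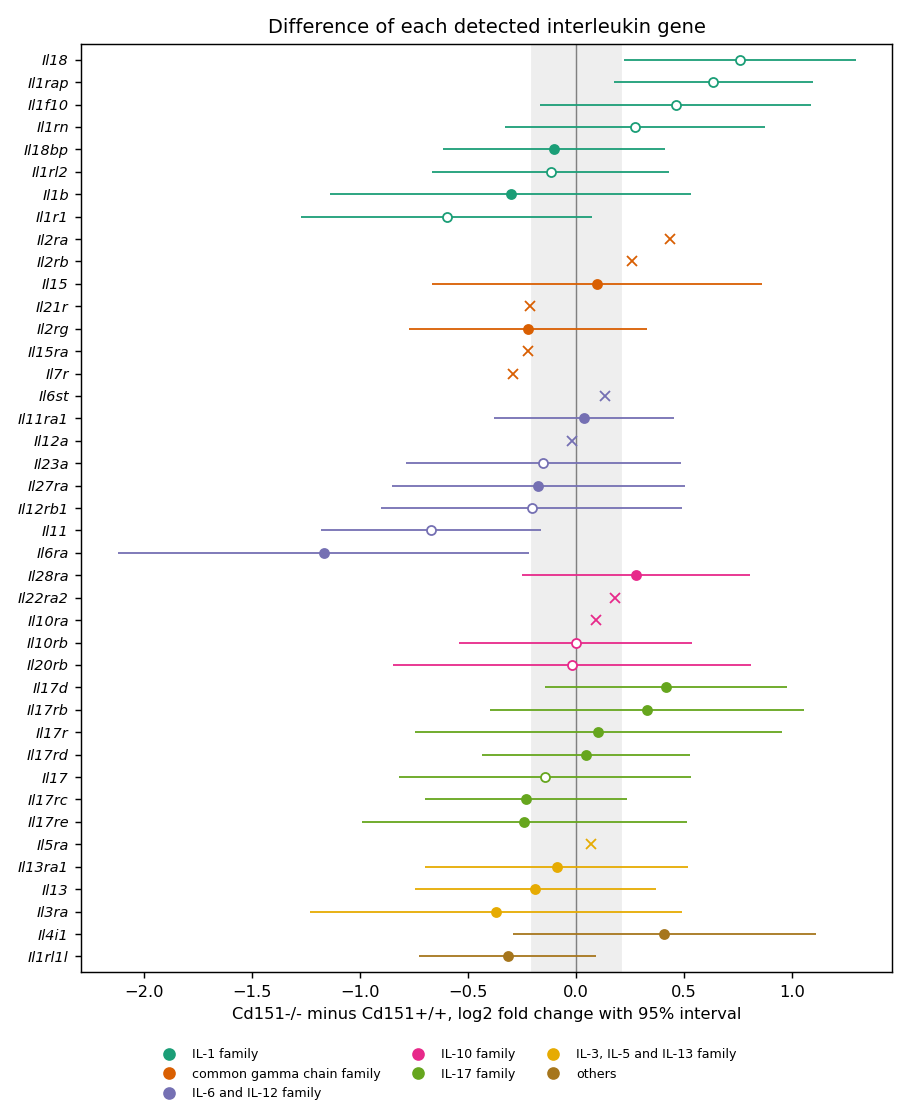
Log2 fold change, Cd151-/- minus Cd151+/+ (x axis, with the 95% interval of the limma fit), of the brightest probe of each of the 41 detected genes (y axis), coloured by family. Filled points were detected on all 8 arrays, open points on fewer, and the 10 crosses without interval were detected on no array of 1 genotype, so that they show values at the background and not a measured difference. The grey band spans the middle 50% of all genes tested, from -0.21 to 0.21, and Il6ra at -1.17 and Il18 at 0.76 lie farthest from 0.

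The libraries carried their labels in that each of the 3 Cd151 probes was detected in 4 of 4 Cd151+/+ mice and in 0 of 4 Cd151-/- mice. The arrays fell into a set of 4 with a lower background (58.98 to 69.48 intensity units) and a set of 4 with a higher background (123.4 to 134.7), and each set held 2 mice of each genotype. Results are therefore also given within each set. All 5 podocyte marker genes tested were detected on all 8 arrays, and all 5 lay below 0 in Cd151-/- mice, with a median log2 fold change of -0.19 and a summed log2 signal of 16.64 to 16.73 in Cd151+/+ mice against 16.41 to 16.75 in Cd151-/- mice. Of the 19 leukocyte markers on the array 12 were detected on at least 1 array and 7 were not, among them Ptprc, Itgam and Emr1, the genes of CD45, CD11b and a macrophage surface protein. The summed leukocyte marker signal spanned 10.72 to 11.18 on the log2 scale in Cd151+/+ mice and 10.66 to 10.93 in Cd151-/- mice, with 5 markers above and 7 below 0. Among them Cd3d, a chain of the T cell receptor complex, did not overlap between genotypes. Its log2 fold change was -0.79 (exact permutation p = 0.0286), with detection in 4 Cd151+/+ mice and 1 Cd151-/- mouse. Coro1a, detected in all 8 mice, did not overlap either, at -0.34 (exact permutation p = 0.0286). Cd68 ran the other way, at 0.29, with overlapping groups. Of 4 mesangial markers tested, Acta2 (0.71) and Pdgfrb (-0.74) passed an unadjusted limma p of 0.05 in opposite directions, and the summed signal was 12.14 to 12.52 against 11.79 to 12.90. All 7 proximal tubule markers tested lay above 0, with a median log2 fold change of 0.61 and a summed signal of 13.70 to 15.26 in Cd151+/+ mice against 14.57 to 15.53 in Cd151-/- mice. Of 8 glomerular endothelial markers 7 lay below 0, with a median of -0.39, and their summed signal was 15.09 to 15.44 against 14.48 to 15.43. Of the tubule and endothelial markers, Pck1, Lrp2 and Kdr lay at the background in all mice of 1 genotype. The part of any of these marker shifts in the interleukin values was not tested.

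In the IL-1 family, 8 of 17 genes were detected, of which 2 passed an unadjusted p of 0.05 upwards and 0 downwards, with a median log2 fold change of 0.08. These are the 2 higher calls given above, where 1.69% of all probes were higher. Counts this small cannot be set apart from that share. Il18 encodes the pro-inflammatory cytokine interleukin-18, which caspase-1 activates and which epithelial cells of the kidney can produce. Its only probe (ILMN_1236517) had normalised log2 signals of 4.85, 4.95, 5.62 and 5.29 in Cd151+/+ mice 1 to 4 and of 6.02, 6.20, 5.96 and 5.55 in Cd151-/- mice 1 to 4. The lowest Cd151-/- mouse lay just under the highest Cd151+/+ mouse, and detection was seen in 2 Cd151+/+ mice and all 4 Cd151-/- mice. The log2 fold change was 0.76 ± 0.24 (SE of the limma fit, n = 4 per genotype), a 1.69-fold higher signal, with an adjusted p of 0.918 by limma and an exact two-sided permutation p of 0.0571. It was 0.86 within the arrays of lower background and 0.66 within those of higher background. With each array scaled to its 75th percentile in place of quantile normalisation it was 0.49 and no longer passed the unadjusted threshold.

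Il1rap encodes the accessory chain that the receptors for IL-1, IL-33 and IL-36 share. Its brightest probe (ILMN_2740465) read 5.20, 4.97, 4.88 and 5.45 in Cd151+/+ mice and 5.79, 5.62, 5.95 and 5.68 in Cd151-/- mice, so the groups did not overlap. It was detected in 1 of 4 Cd151+/+ mice and in 4 of 4 Cd151-/- mice. The log2 fold change was 0.63 ± 0.21 (SE), with an exact permutation p of 0.0286, the smallest that 4 against 4 mice can give, and an adjusted p of 0.918 by limma. Of the other 3 tested Il1rap probes, ILMN_1233678 gave -0.10 and was detected in 3 Cd151+/+ and 2 Cd151-/- mice. ILMN_2740464 gave -0.17 and was detected in 2 mice of each genotype. ILMN_1243228 was detected in 0 Cd151+/+ mice and 1 Cd151-/- mouse, so its values lie at the background. Probes this dim cannot decide whether the difference extends beyond the brightest probe. With 75th percentile scaling the value of the brightest probe was 0.34 and no longer passed the unadjusted threshold. In Cd151+/+ mice alone ILMN_2740465 (mean 5.12) was dimmer than ILMN_1233678 (5.41) and ILMN_2740464 (5.32). Probe positions were not used here, so which transcripts each probe reads was not tested. Groups that did not overlap were found in 0.855% of all probes in the higher direction and in 1.46% in the lower direction. Among these genes they were found in 2 of 62 probes each way, Il1rap and Il2ra higher and Il11 and Il1rl1l lower. Of these Il2ra was detected in 0 of 4 Cd151+/+ mice and 1 of 4 Cd151-/- mice, so its values lie at the background. Counts of 2 in 62 are too small to be set apart from these shares.

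The remaining IL-1 family genes did not pass an unadjusted limma p of 0.05 with all 8 mice. Il1b, the gene of interleukin-1 beta, lay between 6.98 and 8.03 in Cd151+/+ mice and between 6.46 and 8.18 in Cd151-/- mice, with a log2 fold change of -0.30 and a 95% interval of -1.14 to 0.53. That value turned on single mice, since it was -0.67 and passed the unadjusted threshold without Cd151-/- mouse 2, and was -0.08 without Cd151+/+ mouse 4. Il1r1, the signalling receptor of IL-1, was detected in 3 Cd151+/+ mice and 1 Cd151-/- mouse and gave -0.60 ± 0.31 (SE). Its values within the array sets were -0.96 (lower background) and -0.24 (higher background), and it passed the unadjusted threshold without Cd151+/+ mouse 4 (-0.82) or without Cd151-/- mouse 4 (-0.78). The inhibitor genes showed no common direction. Il18bp, whose product binds and neutralises interleukin-18, gave -0.10 with an interval of -0.62 to 0.41. Il1rn, the gene of the IL-1 receptor antagonist, gave 0.27 with an interval of -0.33 to 0.88 on its brightest probe, detected in 1 Cd151+/+ and 2 Cd151-/- mice. Its other tested probe was detected in 1 Cd151+/+ mouse and 0 Cd151-/- mice, so it lay at the background. Neither chain of the interleukin-18 receptor, Il18r1 and Il18rap, was detected on any array.

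In the IL-6 and IL-12 family, 8 of 14 genes were detected, and 2 of them passed an unadjusted p of 0.05 downwards and 0 upwards. These are the 2 lower calls given above, where 2.61% of all probes were lower, and they too are too few to be set apart from that share. Of the 6 genes detected in both genotypes 1 lay above and 5 below 0, with a median of -0.19. Il6ra encodes the chain that binds interleukin-6 before it joins gp130, and its probe (ILMN_2706430) was detected in all 8 mice. It read 8.82, 7.63, 7.47 and 6.90 in Cd151+/+ mice and 6.18, 6.73, 7.40 and 5.82 in Cd151-/- mice. The groups overlapped through Cd151-/- mouse 3, which lay above Cd151+/+ mouse 4, and Cd151+/+ mouse 1 was the highest of all. The log2 fold change was -1.17 ± 0.43 (SE), a 2.25-fold lower signal and the widest difference among the 41 genes, with an exact permutation p of 0.0571 and an adjusted p of 0.918 by limma. It was -1.61 within the lower-background arrays and -0.73 within the higher-background arrays. The value no longer passed the unadjusted threshold without Cd151+/+ mouse 1 (-0.81), without Cd151-/- mouse 1 (-1.04) or without Cd151-/- mouse 4 (-0.93). Il6, its ligand, was not detected on any array. Il6st, the gene of gp130, was detected in 0 of 4 Cd151+/+ mice and 1 of 4 Cd151-/- mice with the single probe of this array, and its difference was not measured.

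Il11 encodes interleukin-11, a gp130 cytokine that stromal cells make and that is known for roles in fibrosis. Its probe (ILMN_1243862) read 5.74, 5.55, 5.71 and 5.80 in Cd151+/+ mice and 5.23, 5.42, 4.57 and 4.88 in Cd151-/- mice. Every Cd151-/- mouse lay under every Cd151+/+ mouse, and the probe was detected in 4 of 4 and 2 of 4 mice. The log2 fold change was -0.67 ± 0.23 (SE), with an exact permutation p of 0.0286 and an adjusted p of 0.918 by limma, and it was -0.92 and -0.43 within the arrays of lower and higher background. Its receptor gene Il11ra1 did not differ beyond the spread between mice. Its signal lay between 13.61 and 13.82 in Cd151+/+ mice and between 13.62 and 13.93 in Cd151-/- mice, with a 95% interval of the log2 fold change of -0.38 to 0.45. Il27ra, a receptor of the same family that pairs with gp130, gave -0.18 with an interval of -0.85 to 0.50.

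The 250 bases before the annotated start of Il18, Il11 and Il6ra are shown because these genes, with Il1rap, led the differences, and AP-1 and STAT sites are the elements through which cytokine signals commonly reach such genes. They were read from RefSeq with build GRCm38.p6 and are written 5′ to 3′ on the strand of the gene, in lower case, with a match to the AP-1 motif TGANTCA in capitals. The regions are chr9:50554450-50554699 (plus strand) for Il18, chr7:4778142-4778391 (minus strand) for the downstream of 2 annotated starts of Il11, and chr3:89913197-89913446 (minus strand) for Il6ra.
Il18: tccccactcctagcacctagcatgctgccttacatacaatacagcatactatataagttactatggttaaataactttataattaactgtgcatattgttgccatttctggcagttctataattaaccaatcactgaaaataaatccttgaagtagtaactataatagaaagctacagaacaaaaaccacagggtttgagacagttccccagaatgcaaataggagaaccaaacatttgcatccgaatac
Il11: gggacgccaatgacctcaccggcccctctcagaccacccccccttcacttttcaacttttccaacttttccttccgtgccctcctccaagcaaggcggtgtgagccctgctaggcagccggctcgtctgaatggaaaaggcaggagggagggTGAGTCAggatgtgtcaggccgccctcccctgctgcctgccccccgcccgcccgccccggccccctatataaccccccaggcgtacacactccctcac
Il6ra: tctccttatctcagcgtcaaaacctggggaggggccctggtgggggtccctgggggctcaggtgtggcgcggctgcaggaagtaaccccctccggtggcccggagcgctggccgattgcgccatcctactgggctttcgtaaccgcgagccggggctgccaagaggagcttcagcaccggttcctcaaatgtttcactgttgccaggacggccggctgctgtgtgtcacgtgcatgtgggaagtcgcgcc
The Il11 window shown held 1 AP-1 match, 98 bases before the start, and no match to the STAT motif TTCNNNGAA on either strand. The window of the other annotated Il11 start and the windows of Il18, Il6ra and Il1rap held neither. Over all 32851 annotated windows of this length, 6.75% held the AP-1 letters and 7.02% the STAT letters. The 32 detected interleukin and receptor genes that matched a window had 40 windows between them, of which 6 held an AP-1 match and 1 a STAT match. These matches describe letters only.

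**Figure D3:**
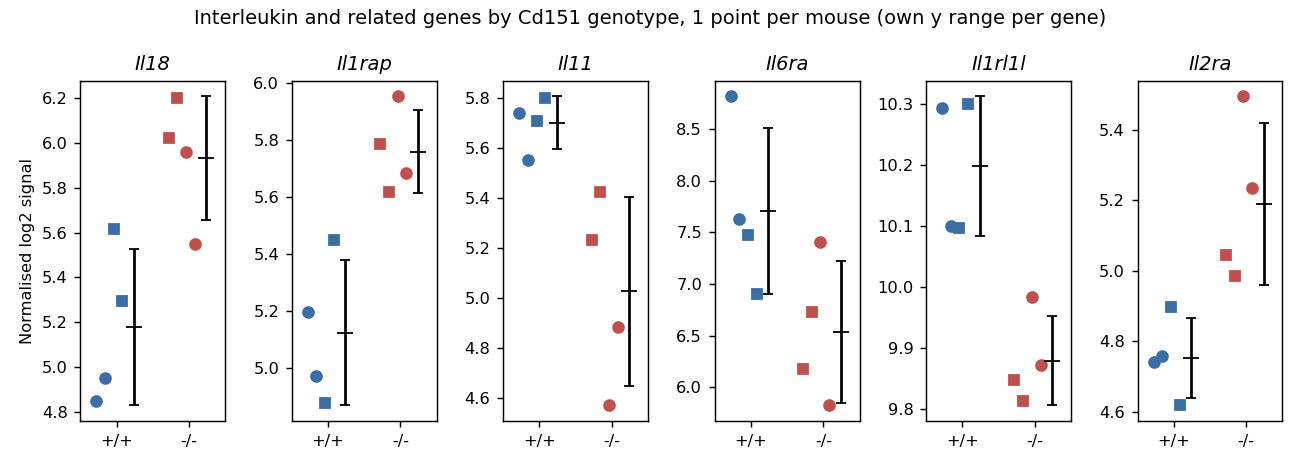
Normalised log2 signal (y axis, with its own range for each gene) of the 4 Cd151+/+ (blue) and 4 Cd151-/- (red) mice for the 6 genes with an unadjusted limma p of 0.05 or lower or with groups that did not overlap. Circles are arrays of lower and squares arrays of higher background, and black bars give the mean and SD. For Il11 and Il1rl1l the lowest Cd151+/+ mouse lies above every Cd151-/- mouse, for Il1rap and Il2ra the reverse holds, and for Il18 and Il6ra the groups overlap. Il2ra was detected in 0 Cd151+/+ mice and 1 Cd151-/- mouse, so its values lie at the background.

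Genes of the common gamma chain family, whose receptors share the chain encoded by Il2rg and act mainly on lymphocytes, gave 7 detected of 13 genes, with 0 past an unadjusted p of 0.05 in either direction. Il2ra, the alpha chain of the IL-2 receptor, read 4.74, 4.76, 4.90 and 4.62 in Cd151+/+ mice and 5.04, 4.98, 5.49 and 5.23 in Cd151-/- mice. The groups did not overlap (exact permutation p = 0.0286), but the probe was detected in 0 of 4 and 1 of 4 mice, so these values lie at the background and no fold is given for them. Il2rg lay between 8.00 and 8.72 in Cd151+/+ mice and between 7.68 and 8.45 in Cd151-/- mice, and it gave -0.22 with an interval of -0.77 to 0.33. Il15, a cytokine that sustains natural killer and memory T cells, was read by 3 tested probes. They gave 0.10, -0.19 and -0.20, and none passed. The brightest probes of Il15ra and Il7r were each detected in 1 Cd151+/+ mouse and in 0 Cd151-/- mice.

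The IL-17 family had the largest share of genes detected on all 8 arrays, and it did not stand out by genotype. All 5 of its receptor genes were detected on all 8 arrays by their brightest probe, though other probes of Il17re were detected on fewer. Of 6 ligand genes Il17d alone was detected on all 8 and Il17, now Il17a, on 2. These receptors act on epithelial and stromal cells, where they raise chemokines and neutrophil growth factors. None of the 7 detected genes passed an unadjusted p of 0.05, and their median log2 fold change was 0.04. Il17r, the gene of the common chain IL-17RA, gave 0.10 with an interval of -0.75 to 0.95, and Il17rd, which encodes a receptor of this family known also as a brake on growth factor signalling, gave 0.05 with an interval of -0.44 to 0.53. Il17rc, the chain that joins IL-17RA, gave -0.23, -0.50 and -0.30 on its 3 probes, each overlapping between genotypes.

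In the IL-10 family 0 of 5 ligand genes were detected, and of its 5 receptor genes and 1 decoy receptor gene 5 were. Il28ra alone was detected on all 8 arrays, and Il10ra and Il22ra2 were each detected in 0 Cd151+/+ mice and 1 Cd151-/- mouse. Il10rb, the chain shared by the receptors of IL-10, IL-22 and type III interferons, gave -0.0034 with an interval of -0.54 to 0.54. It was detected in only 1 Cd151+/+ and 2 Cd151-/- mice, so this value lies near the background and does not show an absence of change. Of the genes of IL-3, IL-5, IL-13 and their receptors, 4 of 7 were detected and 0 passed an unadjusted p of 0.05. Il13ra1, a receptor chain for IL-13 and IL-4, gave -0.09 with an interval of -0.70 to 0.52, and Il3ra gave -0.37 with an interval of -1.23 to 0.49. With 1 mouse left out Il3ra ran from -0.14 (without Cd151-/- mouse 1) to -0.70 (without Cd151-/- mouse 3).

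Among the other names the rule found, Il1rl1l (Tmed1) encodes a protein of the secretory pathway that was once proposed as a ligand of the IL-33 receptor. Its brighter probe (ILMN_1214974) read 10.29, 10.10, 10.10 and 10.30 in Cd151+/+ mice and 9.85, 9.81, 9.98 and 9.87 in Cd151-/- mice, detected in all 8. The groups did not overlap, and the difference was small, -0.32 ± 0.19 (SE of the limma fit), with an exact permutation p of 0.0286 and an adjusted p of 0.918 by limma. That SE draws on the spread of all probes, and the SD between mice was only 0.11 in Cd151+/+ and 0.073 in Cd151-/- mice. Its other probe gave -0.24 and overlapped. Il4i1, an enzyme that oxidises aromatic amino acids and that leukocytes express after IL-4, gave 0.41 with an interval of -0.29 to 1.11.

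Downstream of these receptors, 0 pathway genes passed the unadjusted or the adjusted limma threshold. At the unadjusted threshold 1.69% of all probes were higher and 2.61% lower, and a count of 0 in lists this short cannot be set apart from those shares. Of 19 tested genes of IL-1 and IL-18 signalling and processing, such as the adaptor Myd88 and the protease Casp1, 3 lay above and 16 below 0, with a median log2 fold change of -0.22. By limma the lowest p among them was that of Nfkbia, the NF-kappaB inhibitor that NF-kappaB itself induces, at -0.64 ± 0.32 (SE), with overlapping groups and an exact permutation p of 0.114. Traf6, the ubiquitin ligase that relays IL-1 receptor signals, did not overlap between genotypes, with 9.12 to 9.30 in Cd151+/+ mice against 8.95 to 9.06 in Cd151-/- mice. Its difference was small, -0.17 ± 0.18 (SE of the limma fit, exact permutation p = 0.0286). That SE draws on the spread of all probes, and the SD between mice was only 0.082 in Cd151+/+ and 0.050 in Cd151-/- mice. Of 19 tested JAK-STAT genes 7 lay above and 12 below 0, with a median of -0.12. Socs3, a feedback inhibitor of gp130 receptors, gave -1.20 ± 0.61 (SE), and its SD was 0.34 in Cd151+/+ but 1.52 in Cd151-/- mice. Of 11 tested partner receptor chains and gp130 cytokines, which the Il symbols do not cover, 7 lay above and 4 below 0, with a median of 0.08. These counts include Pycard, Socs6, Irs1, Tslp and Csf2rb1, which lay at the background in all mice of 1 genotype.

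Several of these probes differed more between the arrays of lower and higher background, a split that the labels do not explain, than between genotypes. In a fit with both terms, 11 of 62 probes differed between the array sets after Benjamini-Hochberg adjustment by limma, where 23.9% of all probes did. Il3ra, the interleukin-3 receptor alpha chain, had a mean of 8.86 on lower-background and 7.87 on higher-background arrays (adjusted p = 0.0150 by limma), with Cd151-/- mouse 4 at 8.16 and Cd151+/+ mouse 4 at 8.20 as the only pair of mice that crossed between the sets. A dim probe of Il17re, a receptor chain for IL-17C, ran the other way, from 4.61 to 5.81. The 3 Il15 probes did not move together, since 2 of them passed with opposite signs, -0.61 and 0.55. Within the array sets, the median genotype difference of the 41 genes was -0.05 on lower-background and -0.04 on higher-background arrays. In the fit with the array set as a block the lowest adjusted p of these genes was 0.326 by limma.

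**Figure D4:**
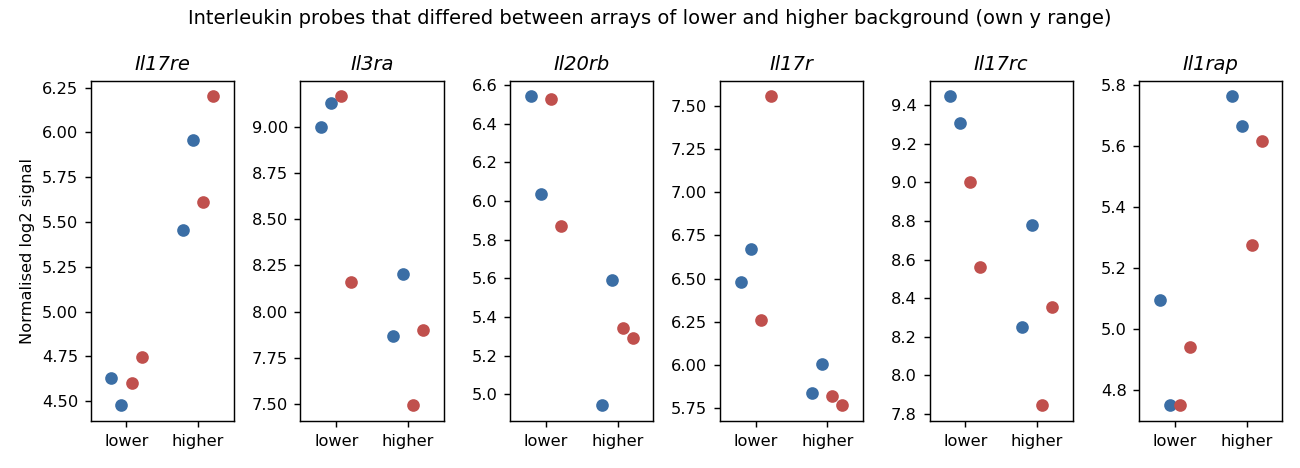
Normalised log2 signal (y axis, with its own range for each probe) of 6 probes that differed between arrays of lower and higher background (x axis), 4 arrays per set, with Cd151+/+ mice in blue and Cd151-/- mice in red. For Il17re every higher-background array lies above every lower-background array, and both genotypes are present in each set.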

How the data were processed

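The authors amplified and biotin-labelled glomerular RNA, hybridised it to 8 BeadChip arrays, 1 mouse per array, and deposited signal intensity values, the mean bead brightness of each probe, neither background-subtracted nor normalised. Detection p-values were deposited by the authors beside each intensity and rest on 798 control probes per array. The submitters' notes name GenomeStudio. Glomeruli were collected on magnetic beads perfused through the heart.

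In R 4.3.3 with limma 3.58.1, background was inferred from the detection p-values, neqc was applied (offset 16, quantile normalisation between arrays), and genotypes were compared with lmFit and eBayes on all probes that at least 1 array detected at 0.05. Adjustment was by Benjamini-Hochberg over 14967 probes. Single probes were tested over all 70 relabelings of the mice (exact, two-sided). Significance Analysis of Microarrays used a false discovery rate of 0.2. The procedure was tested on simulated data. Of several probes for 1 gene the brightest over all mice is given. All differences and levels are on the log2 scale of these values. Each SE is that of the limma fit, which draws the spread of a probe towards that of all probes, so it can exceed the spread between the mice.

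Named are genes with an unadjusted p of 0.05 or lower or non-overlapping groups, the 12 with the highest mean signal, and a preset list of well-known interleukin genes, 24 detected genes in all. The members, families and lists were chosen with earlier results of these data known. Of the 78 symbols 71 matched RefSeq directly and 7 through synonyms. The labels name no pairing of the mice by replicate number, and the main fit used none. Same-numbered mice deviated apart (correlations of -0.58, -0.40, -0.53 and -0.0086). Same-numbered mice always lay in opposite array sets by background, so these correlations cannot decide whether the numbers pair the mice. The number of arrays limits the precision.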

Additional observations from a re-analysis of the deposited data

Results flagged for a closer look

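Of 48 groups of 4 mice examined, 2 held a mouse far from the other 3, and chance gives about 1 such group in 20. Il17rc read 9.07 in Cd151-/- mouse 4, where the nearest of the other Cd151-/- mice read 9.46. Il27ra read 8.09 in Cd151+/+ mouse 4, where the nearest of the other Cd151+/+ mice read 9.10.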

How the results depend on the processing

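The 4 calls at an unadjusted p of 0.05 rested on dim probes or wide spread, and counts of 0 to 4 probes higher and 1 to 8 lower were obtained over the settings. The counts were 0 higher with 75th percentile scaling, 4 higher without the detection filter, 0 higher and 1 lower with an intensity of at least 50 (Il18, Il1rap and Il11 then left the test), 4 higher and 8 lower with array weights, and 4 higher and 4 lower with the array set as a block, where Il17d and Il2ra joined the higher and Il17rc and Il1r1 the lower probes. With that block 5.21% of all probes were higher and 6.08% lower. Il2ra, among the higher probes there, lay at the background in all Cd151+/+ mice. With array weights 15.6% of all probes were higher and 16.6% lower, and the lowest adjusted p of these genes was 0.0885 by limma. Il1rl1l, detected in all 8 mice, joined the lower probes without background correction, with an offset of 50 and without the detection filter. Each of these settings gave 3 lower probes, where 2.70%, 2.84% and 2.58% of all probes were lower. Leaving out 1 mouse gave 2 to 4 higher (4 without Cd151-/- mouse 3) and 1 to 3 lower (1 without Cd151+/+ mouse 1 or without Cd151-/- mouse 1). The median over the genes was -0.02, -0.15 with 75th percentile scaling (-0.07 over all probes), -0.20 with array weights, and -0.17 (without Cd151-/- mouse 3) to 0.035 (without Cd151+/+ mouse 2) with 1 mouse left out. With the replicate block 2 were higher and 2 lower, the same 4 genes, and the block changed no call of these genes.

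The sign turned for Il1rn (-0.020) with 75th percentile scaling, Il10rb (0.0080) with an offset of 50, and Il10rb (0.19), Il15 (-0.18) and Il17r (-0.41) with array weights, where Il3ra (-0.99) and Il1r1 (-0.77) passed the unadjusted threshold. Il6st (-0.031 with 75th percentile scaling) lay at the background in all Cd151+/+ mice, so its sign was not measured. The sign also turned on other probes of a gene, which gave -0.19 and -0.20 for Il15 and -0.10 and -0.17 for Il1rap. Other probes of Il15ra (0.025) and Il1rn (-0.16) were detected in 1 Cd151+/+ mouse and 0 Cd151-/- mice, so their sign was not measured either. With 1 mouse left out, Il10rb ran from -0.13 to 0.18, Il11ra1 from -0.017 to 0.086, Il13ra1 from -0.26 to 0.078, Il15 from -0.18 to 0.32, Il17r from -0.30 to 0.30 and Il17rd from -0.042 to 0.15. The cause was not tested.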
